A study of Mus musculus with 4 samples.

Results

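The centromere-proximal ends of the mouse autosomes were followed in H3K4me3 HiChIP-seq of MLg cells, a mouse lung fibroblast line. They were taken as positions 3000001 to 8000000 of chromosomes 1 to 19 (mm10), next to the unassembled centromeric gap. This gives 950 of the 24069 bins of 100 kb of the assembled autosomes and 171 pairs of windows on different chromosomes. On some chromosomes the gap reaches further, and assembled bases begin at 3050001 on chromosome 4 and at 3100001 on chromosome 11. Distances from the start of the assembled sequence are counted from 3000001 on every autosome. HiChIP-seq joins proximity ligation of restriction fragments with immunoprecipitation of a histone mark, here H3K4me3, so that each valid pair of ends reports a contact. There was 1 library for each of 4 conditions. Control cells received a negative control antagomiR according to the methods of the study, whereas their own label calls them WT and neither it nor that of TGFB1 names an antagomiR, so the contrasts with miR-9-LOF may also differ in transfection. The TGFB1 cells were additionally exposed to TGFB1 at 5 ng/ml for 4 h. The miR-9-LOF cells received 60 nM of a miR-9 antagomiR, and the TGFB1+miR-9-LOF cells received the antagomiR and then TGFB1, with harvest 24 h after transfection. All 4 libraries come from a single cell line, and tests between them cover counting error in these libraries, not the spread between cultures.

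Mouse chromosomes are acrocentric: the centromere lies at one end, inside long arrays of satellite repeats that are largely missing from the assembly. In interphase nuclei the pericentromeric heterochromatin of several chromosomes gathers in common bodies, the chromocenters, and ribosomal DNA next to some centromeres joins chromosomes at nucleoli. H3K4me3 marks active promoters and is scarce in such heterochromatin. Pairs could be counted on the assembled sequence alone. Whether some of their ends came from repeats of the unassembled arrays was not tested.

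The first assembled bases of some chromosomes share repeated stretches. The first 160 assembled bases are shown for chromosomes 4, 8, 3, 9, 7 and 11, which make up the 3 pairs of chromosomes with the most contacts relative to expected, with the MboI sites at which the chromatin was cut in capitals. They are the plus strand of the RefSeq GRCm38.p6 sequence at chr4:3050001-3050160, chr8:3000001-3000160, chr3:3000001-3000160, chr9:3000001-3000160, chr7:3000001-3000160 and chr11:3100001-3100160.
Chromosome 4: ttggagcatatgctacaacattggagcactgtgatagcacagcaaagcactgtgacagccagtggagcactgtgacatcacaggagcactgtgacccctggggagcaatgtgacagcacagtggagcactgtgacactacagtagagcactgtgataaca
Chromosome 8: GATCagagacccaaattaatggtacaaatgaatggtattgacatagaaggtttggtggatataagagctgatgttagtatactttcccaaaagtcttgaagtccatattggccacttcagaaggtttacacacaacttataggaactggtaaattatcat
Chromosome 3: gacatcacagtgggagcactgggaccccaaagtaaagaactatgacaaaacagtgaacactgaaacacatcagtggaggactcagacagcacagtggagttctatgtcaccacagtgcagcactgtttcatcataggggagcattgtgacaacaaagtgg
Chromosome 9: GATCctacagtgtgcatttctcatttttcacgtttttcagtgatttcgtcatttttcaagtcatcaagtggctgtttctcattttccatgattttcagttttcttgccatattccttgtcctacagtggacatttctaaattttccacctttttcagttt
Chromosome 7: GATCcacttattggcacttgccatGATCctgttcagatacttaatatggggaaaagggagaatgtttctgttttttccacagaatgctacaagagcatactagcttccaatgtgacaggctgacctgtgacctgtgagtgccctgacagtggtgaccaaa
Chromosome 11: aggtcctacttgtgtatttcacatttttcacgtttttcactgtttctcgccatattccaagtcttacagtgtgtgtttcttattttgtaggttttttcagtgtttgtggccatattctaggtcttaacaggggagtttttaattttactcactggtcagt
Chromosomes 9 and 11 shared the 18-base stretch catttttcacgtttttca, which occurred 124 times in the first Mb of 2 autosomes on either strand, 0 times in the next 4 Mb and 10 times in the 25 Mb after that. Chromosomes 3 and 4 shared the 15-base stretch gacagcacagtggag, which occurred 144 times in the first Mb of 5 autosomes and 45 times in those 25 Mb. These are the longest exact stretches shared by any 2 of the 6 sequences, and neither joins a pair for which they are shown. The ratios of chromosomes 9 with 11 and 3 with 4 were 2.08 and 1.50. Over all 171 pairs of chromosomes the median was 1.59 and the upper quartile 1.81. Diverged copies of a repeat were not compared. Chromosomes 4 and 8 shared at most 6 bases, and 3 and 9 and 7 and 11 at most 8, stretches that occurred in all 19 autosomes. That of 3 and 9, acagtgga, occurred 2207 times in the first Mb and 827 to 909 times in each of the next 4. The counts were 1183 and 1097 to 1219 for gttttttc of 7 and 11, and 11553 and 11526 to 12097 for tgacat of 4 and 8. Whether repeats at the start go with the leading pairs was not tested. Over the first Mb of all 19 autosomes, 17.7% of the words of 31 bases were found again on another autosome of that set, against 6.38% to 11.3% (median 9.41%) in the 29 sets of 1 Mb that follow.

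Only pairs between autosomes whose ends both had a mapping quality of at least 30 were counted: 2149792 in Control, 2206739 in miR-9-LOF, 2227925 in TGFB1+miR-9-LOF and 1353102 in TGFB1. The windows differed in what they hold. The number of protein-coding transcription start sites (TSS) ranged from 8 on chromosome 3 to 185 on chromosome 19 (median 32, against 31 in the 434 interior windows of 5 Mb). The depth ranged from 2.55 ends per kb on chromosome 14, where 60.2% of the bases are soft-masked repeats, to 104 per kb on chromosome 19, with a median of 30.4 against 35.9 in the interior. In each library a larger share of the ends in the first windows than in the interior belonged to pairs between autosomes, 19.7%, 21.3%, 22.6% and 17.7% against 16.1%, 17.2%, 18.2% and 14.2% in the order above. With the libraries summed, this share ranged from 17.8% to 24.7% over the 19 windows, and each of them lay above the interior median of 16.4%. Fibroblast genes had more ends within 2 kb of their TSS than the median coding gene in each library (medians 4.58 to 9.61 against 2.85 to 3.35 per 1000000 ends over 8 genes), except Col3a1. The medians of epithelial, endothelial and leukocyte genes were 1.91 to 3.03. In TGFB1+miR-9-LOF the epithelial median of 2.87 was slightly above the coding median of 2.85. Single genes also exceeded it: Epcam had 3.75 in TGFB1 (3.20), Pecam1 4.31 in miR-9-LOF (2.86) and Itgam 3.52 in TGFB1+miR-9-LOF.

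The centromere-proximal windows of different autosomes were joined more often than their coverage predicts in each of the 4 libraries. The expected number of pairs is the product of 2 window weights, fitted so that each window keeps its observed total of pairs with other autosomes. Control had 6335 pairs against 4186 expected, a ratio of 1.51 (95% Poisson interval 1.48 to 1.55). The miR-9-LOF library had 6751 against 4438 (1.52, 1.49 to 1.56), TGFB1 4014 against 2566 (1.56, 1.52 to 1.61) and TGFB1+miR-9-LOF 6155 against 4154 (1.48, 1.44 to 1.52). The same ratio among interior windows was 1.00 in each library. The fit holds it near 1, since 21700 of the 24069 bins are interior. The excess over the interior therefore nearly repeats the ratio of the centromere-proximal windows. The excess over the interior was 1.51-fold in Control (two-sided exact binomial test, p = 2.63e-207), 1.52-fold in miR-9-LOF (p = 1.64e-225), 1.56-fold in TGFB1 (p = 3.75e-152) and 1.48-fold in TGFB1+miR-9-LOF (p = 1.06e-182). These p-values cover counting error within 1 library and take no account of the uneven contact between ordinary windows. Pairs among the centromere-proximal windows made up 0.276% to 0.306% of all pairs between autosomes.

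The excess was not restricted to the first 5 Mb. Sets of 1 window per autosome at the same distance from the start gave ratios that fell with that distance. With the libraries summed, the ratio was 1.52 (1.50 to 1.54) at 3 to 8 Mb, 1.36 (1.34 to 1.38) at 8 to 13 Mb, 1.33 at 13 to 18 Mb and 1.26 at 18 to 23 Mb. It then dropped to 1.07 (1.06 to 1.09) at 23 to 28 Mb, and the 5 sets from there to 53 Mb lay between 1.01 and 1.09. In each library the first set was above all 9 sets that follow, whose highest ratio was 1.33 in Control, 1.38 in miR-9-LOF, 1.33 in TGFB1+miR-9-LOF and 1.42 in TGFB1. The contacts of the first windows with windows further along other autosomes also declined, but more gradually and over a longer distance. Their ratio went from 1.32 at 8 to 13 Mb through 1.18 at 23 to 28 Mb to 1.11 at 28 to 33 Mb. It was 1.16 at 38 to 43 Mb, 1.02 at 53 to 58 Mb and 0.787 at 118 to 123 Mb, where only 11 autosomes are long enough. This ratio was first below 1 at 58 Mb in each library.

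**Figure D1:**
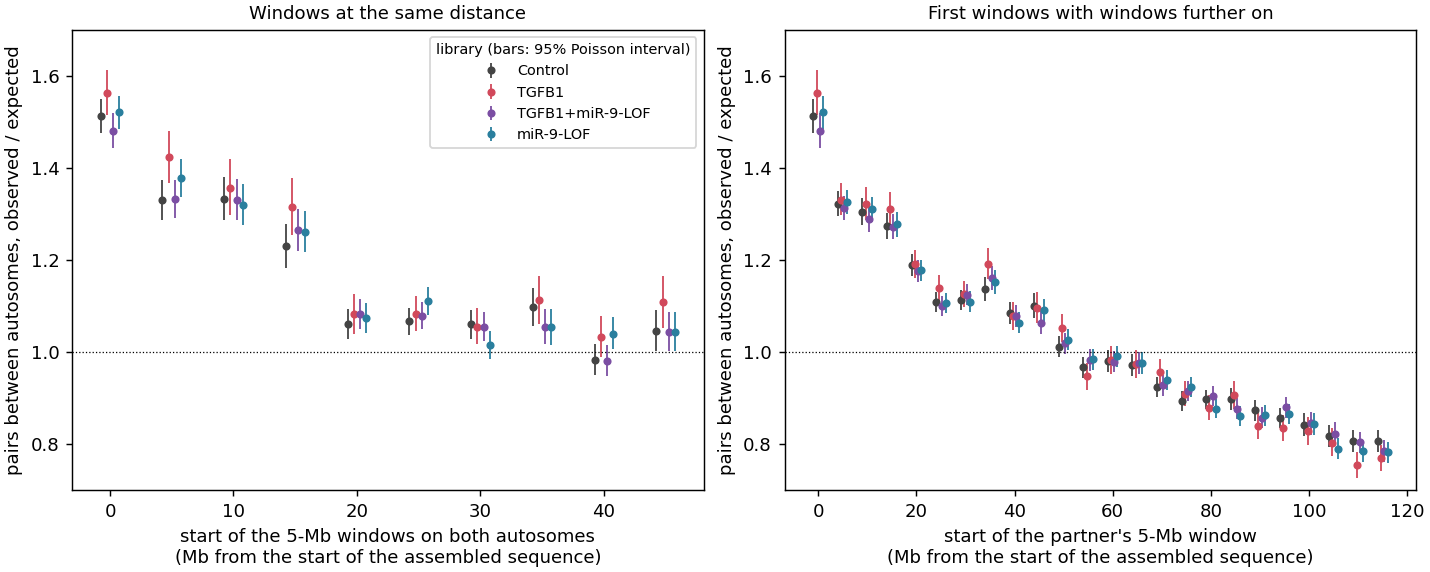
Observed over expected pairs between autosomes for windows of 5 Mb, with 95% Poisson intervals, in the 4 libraries: on the left 1 window per autosome at the same distance from the start of the assembled sequence (0 stands for the first 5 Mb), on the right the first windows with the window at the given distance on other autosomes. The ratios of all 4 libraries fall from 1.48 to 1.56 at the start to near 1 on the left at 20 Mb, and cross 1 on the right at 55 Mb.

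Within the first 5 Mb the contacts were concentrated at the very start. The first Mb of an autosome met the first Mb of another in 2872 pairs against 786 expected, a ratio of 3.65 (3.52 to 3.79), and the values were 3.76 in Control, 3.51 in miR-9-LOF, 3.56 in TGFB1+miR-9-LOF and 3.88 in TGFB1. The ratio of the first Mb was 2.12 without the first 500 kb, and 7.73 with expected numbers set from all ends of a window. The first with the second Mb gave 1.78 (1.71 to 1.85), and the other 13 squares of 1 Mb within the first 5 Mb lay between 1.19 and 1.49. The first Mb had ratios of 1.23 to 1.52 with the squares from 2 to 20 Mb further on, in no steady order, and of 1.05 to 1.22 with those from 21 to 29 Mb further on. Along the windows in steps of 100 kb, the ratio fell from 3.47 in the first bin to 1.82 in the fifth and 1.20 in the bin at 2600 kb, the lowest of the 50. The later bins lay between 1.25 and 1.44, with 1.41 in the last.

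**Figure D2:**
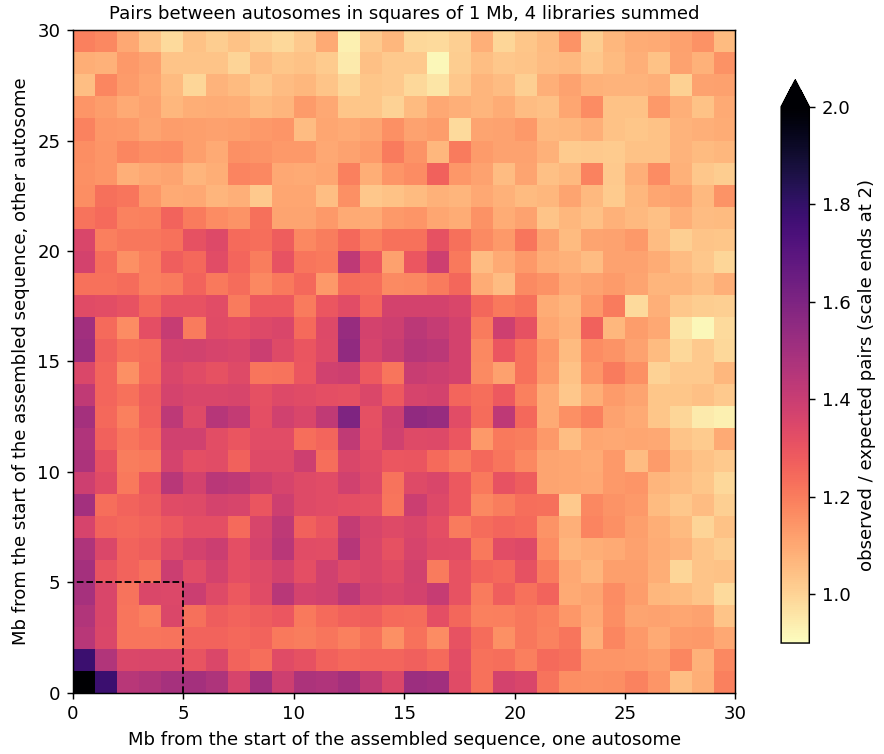
Observed over expected pairs between autosomes in squares of 1 Mb, libraries summed, over 30 Mb from the start of the assembled sequence of either autosome; the dashed lines enclose the first 5 Mb. The square of the first Mb with the first Mb, at 3.65, is the highest, and a broad raised block reaches to about 20 Mb.

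The comparison of the first window with the next one depended on the first 500 kb. Without the first 500 kb the ratio was 1.37 (1.35 to 1.39), against 1.37 (1.35 to 1.39) at 8 to 13 Mb, and without the first Mb it was 1.32 (1.30 to 1.35), against 1.37 (1.35 to 1.40). The excess over the interior stayed at 1.29 to 1.34 over the libraries without the first Mb. The repeated sequence described above lies in the same stretch. Leaving out the 197 bins of the windows in which over 20% of the 31-base words occur in the first 5 Mb of another autosome, 62 of them in the first Mb, left a ratio of 3.03 for the first Mb and 1.48 for the windows. This filter sees only exact words shared between assembled first windows. It kept bases 3100001 to 3200000 of chromosome 11, at 12.4%, and bases 3200001 to 3300000 of chromosome 16, at 6.39%. With a mapping quality of at least 40 the ratio of the first Mb was 3.25 and that of the windows 1.51. Ends placed on a wrong copy in spite of their mapping quality were not tested.

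**Figure D3:**
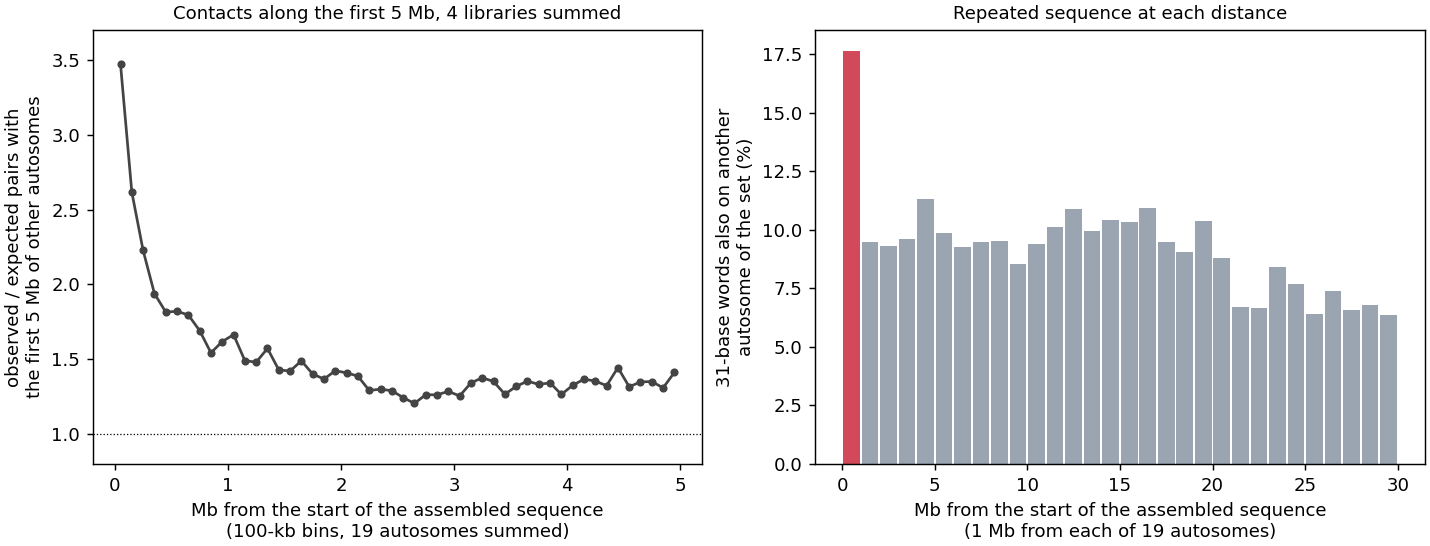
Left: observed over expected pairs of each 100-kb step from the start of the assembled sequence with the first 5 Mb of the other autosomes, 19 autosomes and 4 libraries summed, which falls from 3.47 to 1.20 at 2600 kb and is at 1.41 in the last bin. Right: share of 31-base words of the reference found again on another autosome, in sets of 1 Mb per autosome at the same distance, with the first Mb in red at 17.7%.

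Single bins carried part of this excess. Of the 950 bins, 15 had no ends and 645 had at least 20 pairs expected with the other first windows. Of these, 612 had more pairs than expected, with a median ratio of 1.47 (interquartile range 1.27 to 1.69), and 19 of the 33 below expected were on chromosome 19. There is no such count for bins outside the first windows to set beside it. The 5 bins with the highest ratios all lay in the first 300 kb and held no TSS of a coding gene. Bases 3200001 to 3300000 of chromosome 4 led with 215 pairs against 32.1 (6.70, 5.83 to 7.65), and the 4 libraries had ratios of 6.04 to 7.60. Bases 3000001 to 3100000 of chromosome 4 followed at 4.92, bases 3200001 to 3300000 of chromosome 16 at 3.54, bases 3000001 to 3100000 of chromosome 17 at 3.42 and the first 100 kb of chromosome 18 at 3.19. The share of 31-base words also found in the first window of another autosome was 70.3%, 34.5%, 6.39%, 21.1% and 60.7% in these 5 bins, against a median of 11.6% over the bins of the windows. Between 9.19% and 31.8% of their ends had a mapping quality under 30.

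The bin with the most pairs was at 3100001 to 3200000 of chromosome 11, at the start of its assembled sequence. It lies over Sfi1 (chr11:3131850-3193463, minus strand), which encodes a centrin-binding protein of the centrosome. The bin entered 2300 pairs with the other first windows against 849 expected, a ratio of 2.71 (2.60 to 2.82), which is 9.89% of all pairs among the windows. It met all 18 other autosomes, with 5 to 253 pairs each. The bin was also unusually deep, with 34563 ends in 100 kb, where the median first window had 30.4 ends per kb. The bins of all autosomes at the same distance from the start held 65477 ends together, these included. Whether this depth bears on its count of pairs was not tested. Of its ends 58.2% belonged to pairs between autosomes, above the 24.7% of the highest whole window, and 21.5% had a mapping quality under 30. That share was compared with whole windows only, not with other single bins. Without this bin the ratio of the first windows was 1.45 (1.43 to 1.47) and that of the first Mb 3.18.

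Of the 171 pairs of chromosomes, 156 had more pairs between their first windows than expected with the libraries summed, and 122 of them had more in 4 of 4 libraries. For these 2 counts there is no share over all pairs of windows, so they cannot be weighed. The median ratio was 1.59 (interquartile range 1.38 to 1.81), against 0.996 (0.841 to 1.17) over 88844 pairs of interior windows, of which 3.54% reached the median of the first windows. By a two-sided exact Poisson test with Benjamini-Hochberg adjustment over all 105152 pairs of windows at 0.05, 121 of the 171 (70.8%) had more pairs than expected, where 8.55% of all pairs of windows did, and 4 (2.34%) had fewer, where 9.71% of all did. Without the first Mb the 121 fell to 74, where 8.30% of all pairs of windows had more. In single libraries, with a median of 10.9 to 20.0 pairs expected, 43 had more in Control, 53 in miR-9-LOF, 41 in TGFB1+miR-9-LOF and 27 in TGFB1, where 1.06%, 1.57%, 1.02% and 0.644% of all pairs of windows did. The Poisson test takes no account of the uneven contact between ordinary windows. A negative binomial test with 1 dispersion for all pairs of windows called 0 of the 171 with more pairs, where it called 0.0732% of all pairs of windows (67 at an unadjusted p under 0.05, against 1.78% of all). It called 3, where 0.097% of all were called, with the dispersion estimated without 5 pairs of chromosomes that hold a possible rearrangement, here a pair of interior windows that passed at 4-fold or more (1 with 10, 2 with 9, 6 with 8, 7 with 12 and 13 with 17).

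The highest ratio was found between chromosomes 4 and 8, with 51 pairs in Control against 17.5 expected, 48 in miR-9-LOF against 20.9, 39 in TGFB1 against 10.6 and 41 in TGFB1+miR-9-LOF against 18.8. All 4 libraries were above expected, and the sum gave a ratio of 2.64 (2.27 to 3.06, adjusted p = 4.42e-26 by the exact Poisson test). Chromosomes 3 and 9 had a ratio of 2.60, chromosomes 7 and 11 of 2.48 with 434 pairs, chromosomes 4 and 6 of 2.46, and chromosomes 5 and 13 of 2.45. The others of the 10 highest were chromosomes 7 with 16 (2.41), 5 with 12 (2.41), 6 with 8 (2.33), 1 with 3 (2.31) and 8 with 9 (2.24). Chromosomes 6 and 8 also held a possible rearrangement outside the first windows, between 23 to 28 Mb and 28 to 33 Mb, at a ratio of 4.59. Each of these 10 was above expected in 4 of 4 libraries, and their adjusted p ranged up to 3.25e-09.

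The lowest ratio, 0.582 between chromosomes 4 and 14, rested on 4 pairs against 6.88 expected (0.158 to 1.49) and did not pass the test. The next 4 of the lowest pairs all included chromosome 19, and they were the 4 that passed with fewer pairs. Chromosomes 1 and 19 had 37 pairs in Control against 56.4 expected, 37 in miR-9-LOF against 59.8, 17 in TGFB1 against 32.9 and 28 in TGFB1+miR-9-LOF against 52.5, a ratio of 0.590 (0.489 to 0.707, adjusted p = 3.85e-08 by the exact Poisson test). Every library was below expected. Chromosome 19 had ratios of 0.631 with chromosome 3, 0.804 with chromosome 9 and 0.825 with chromosome 4 (adjusted p = 0.000169, 0.0407 and 0.0377 by the exact test). With chromosome 9 the miR-9-LOF library was above expected, at 1.07. These 4 calls rose to 10 when the expected number was set within each pair of chromosomes (7.84% of all pairs of windows). They fell to 1 with expected numbers scaled for gene density (6.88% of all), and to 0 with expected numbers from all ends (15.7%), without bins of extreme coverage (5.84%) and by both negative binomial tests (0%). In none of these settings was the share of the 171 with fewer pairs above that of all pairs of windows. With chromosomes 11, 16 and 7 chromosome 19 had more pairs than expected, at 1.71 (1.61 to 1.82), 1.55 (1.38 to 1.73) and 1.48 (1.32 to 1.65). Of the 18 pairs with chromosome 19, 9 were above expected, and of the 153 others 147 were.

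**Figure D4:**
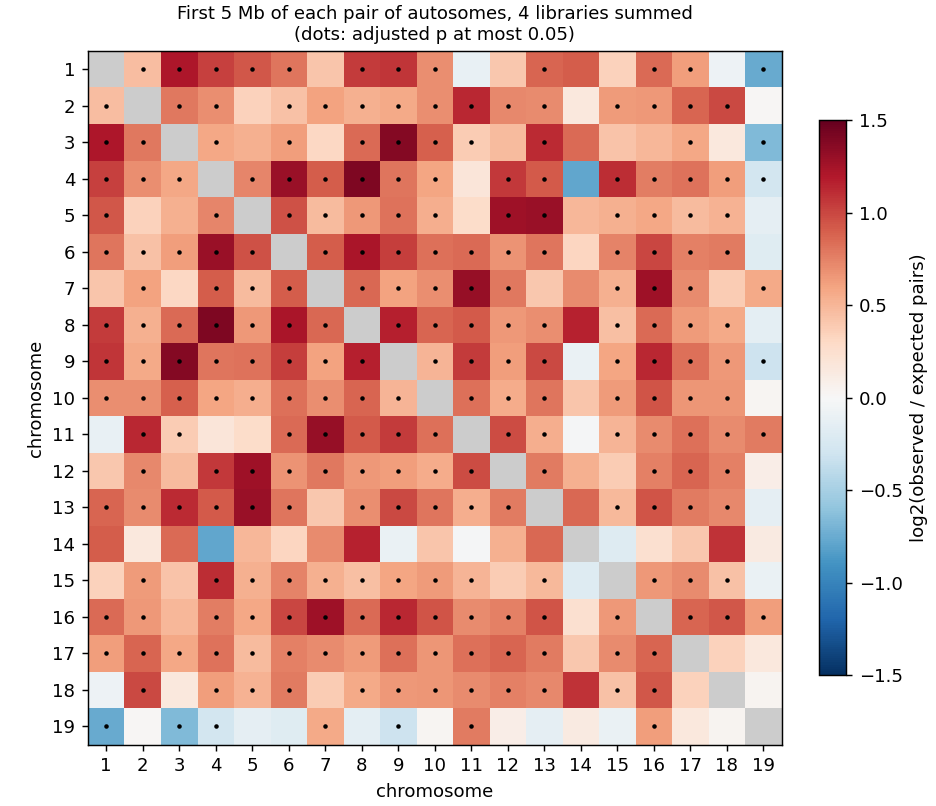
Log2 of observed over expected pairs between the first 5 Mb of each 2 autosomes, 4 libraries summed; dots mark an adjusted p of at most 0.05 by the Poisson test, and grey squares are pairs within a chromosome. Most squares are red, with the highest for chromosomes 4 and 8 at a ratio of 2.64, and the blue squares lie mainly in the row of chromosome 19.

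The excess differed between windows of different gene density. All 472 windows were put in 4 classes of near equal size by their number of coding TSS, from at most 18 to at least 59. The first windows of the densest class, those of chromosomes 7, 11, 14 and 19, had a ratio of 1.77 (1.69 to 1.85) with each other and 0.894 (0.826 to 0.966) with those of the sparsest class, chromosomes 1 and 3. Interior windows of the same classes had 1.16 and 0.818. The value of 0.894 leaned on chromosome 19, which had 0.590 with chromosome 1 and 0.631 with chromosome 3. Chromosomes 1 and 11 had 0.923, and the other pairs of these classes 1.24 to 1.87. With the 7 first windows of the second class chromosome 19 had 0.825 to 1.07. The classes were not compared without chromosome 19. The ratio of the densest class fell to 1.48 with the third class and 1.24 with the second. The second class had 1.76 with itself, 1.66 with the third and 1.54 (1.45 to 1.63) with the sparsest. The third class went against this order, with 1.72 with itself and 1.74 (1.64 to 1.84) with the sparsest. The single pair within the sparsest class, chromosomes 1 and 3, had 2.31 (1.84 to 2.87), against 1.26 for interior windows. In each of the 10 combinations of classes the first windows were above the interior ones, with intervals that did not overlap. With the expected number scaled for these classes, the excess of the first windows over the interior ones kept its direction and its call in each library.

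Each of the 19 windows had more contacts with the other first windows than expected. The ratios of chromosome 16 (1.74, 1.67 to 1.82), 7 (1.71), 11 (1.68), 9 (1.67), 8 (1.67) and 6 (1.67) were the highest, and their intervals overlap. Chromosomes 4, 12, 13, 17, 2 and 10 followed between 1.61 and 1.55, and 5, 18, 3, 15 and 1 between 1.46 and 1.39. Chromosome 14 had 1.30 (1.12 to 1.50) from only 187 pairs, and ranged from 1.09 to 1.46 over the libraries. Chromosome 19 was the lowest at 1.10 (1.07 to 1.13), with 1.15 in Control, 1.08 in miR-9-LOF, 1.09 in TGFB1+miR-9-LOF and 1.05 in TGFB1, and the median over its 18 partners was 0.974. When the expected number was set within each pair of chromosomes, its ratio was 0.910, below expected. Across the 19 windows the ratio had a Spearman's rho of 0.086 with GC content (0.28 without chromosome 19) and 0.11 with the share of ends with low mapping quality (0.032). With the number of coding TSS rho was 0.30, and 0.53 without chromosome 19, but Pearson's r over all 19 windows had the opposite sign, -0.39. These correlations are descriptions over 19 windows that share libraries and enter each other's ratios.

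**Figure D5:**
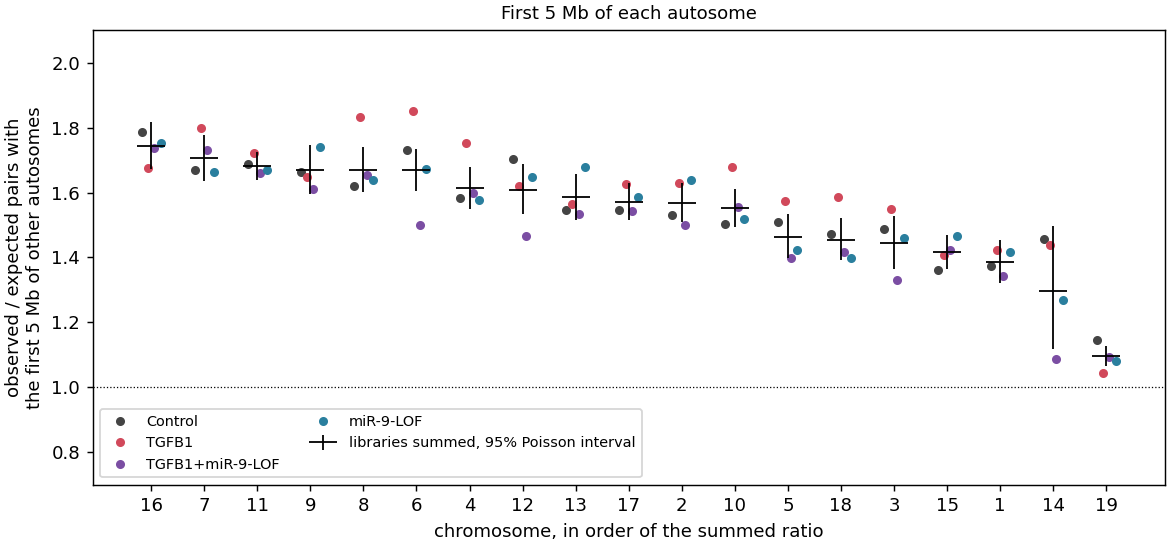
Observed over expected pairs of the first 5 Mb of each autosome with those of the other 18, by library (points) and summed (line with its 95% Poisson interval). All summed values lie above 1, from 1.74 on chromosome 16 to 1.10 on chromosome 19.

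Chromosomes 12, 15, 16, 18 and 19 carry ribosomal DNA near the centromere in common mouse strains, and the strain behind MLg may carry it elsewhere. Their first windows had 1619 pairs with each other, a ratio of 1.25 (1.19 to 1.31), with a median of 1.45 over their 10 pairs of chromosomes. The ratio was 1.96 with expected numbers set from all ends, and as low as 1.10 with 1 autosome left out (chromosome 16). The median over all 171 was 1.59, and the 91 pairs without any of these chromosomes had a ratio of 1.71 (1.68 to 1.74). Without chromosome 19, the 6 pairs of the other 4 had 1.55 (1.43 to 1.68), and the difference was not tested.

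One member had a strongly raised contact with a window outside the set. The first window of chromosome 6 met 38 to 43 Mb of chromosome 17 in 463 pairs against 69.8 expected, a ratio of 6.63 (adjusted p = 6.36e-208 by the exact Poisson test), the only pair of a first window with any other window to pass the test at 4-fold or more. The ratio was 7.79 in Control, 2.66 in miR-9-LOF, 7.62 in TGFB1+miR-9-LOF and 9.35 in TGFB1. These pairs are not among the contacts between first windows, but they enter the profile of contacts with windows further along, whose ratio at 38 to 43 Mb was 1.16 with the libraries summed. The rule for a possible rearrangement took interior windows only, so chromosomes 6 and 17 were not left out by it. Their first windows had a ratio of 1.68 with each other. Whether a rearrangement lies here was not tested.

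The windows hold the TSS of 904 coding genes. The share of their ends within 2 kb of a TSS was 17.7% in Control, 10.7% in miR-9-LOF, 9.75% in TGFB1+miR-9-LOF and 14.1% in TGFB1, and in the interior 13.7%, 8.26%, 7.47% and 10.7%. Rictor, a subunit of mTOR complex 2 (chr15:6708379-6800401), had the most ends near its TSS, with 57.2, 24.4, 21.4 and 42.0 per 1000000 ends in the same order. Rhbdd3 and Ewsr1, which encodes an RNA-binding protein, share a promoter on chromosome 11 and had 49.9, 24.0, 19.3 and 34.6. The others of the 10 with the most ends were Sfi1 and Morc2a, a chromatin-associated ATPase, on chromosome 11, and Zfpl1, Cdca5, Ppp1ca, B4gat1 and AC124502.3 on chromosome 19. Cdca5 encodes the cohesin regulator sororin, and Ppp1ca a catalytic subunit of protein phosphatase 1. Zfpl1 and Cdca5 count the same ends, and B4gat1 and AC124502.3 nearly the same, since their TSS lie close together. All 10 had their highest value in Control. The median over all coding genes was also highest there, at 3.35 against 2.86 in miR-9-LOF, 2.85 in TGFB1+miR-9-LOF and 3.20 in TGFB1. In TGFB1+miR-9-LOF 9 of them had 17.4 to 21.4 per 1000000, whereas Sfi1 had 31.1 there and 33.4 in Control. The excess of contacts remained when pairs with an end within 2 kb of a TSS were left out, with a ratio of 1.54 (1.52 to 1.57).

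Between libraries the contacts among the first windows differed little. TGFB1 was 0.05 above Control on the log2 scale (interval -0.01 to 0.11, adjusted p = 0.182 by the exact binomial test over 4 contrasts), and the ratio was higher in TGFB1 on 14 of 19 chromosomes. The TGFB1+miR-9-LOF library was 0.08 below TGFB1 (log2 -0.08, -0.14 to -0.02, exact binomial test, adjusted p = 0.0300), with a lower ratio on 16 of 19 chromosomes. The chromosomes of a contrast share the same 2 libraries and enter each other's ratios, so these counts are not replicates. TGFB1+miR-9-LOF over TGFB1 was at -0.09 at 8 to 13 Mb, -0.03 at 13 to 18 Mb and -0.06 at 18 to 23 Mb. TGFB1 over Control was at 0.10, 0.03 and 0.10 in these sets, values that were not tested. The call for the first windows was lost under several alternatives, and the log2 ratio was -0.06 without the first 500 kb (adjusted p = 0.329 by the exact test). Against Control, miR-9-LOF differed by 0.01 (-0.04 to 0.06, adjusted p = 0.780 by the exact test), and TGFB1+miR-9-LOF was at -0.04 against miR-9-LOF (-0.09 to 0.01, adjusted p = 0.182). No pair of chromosomes passed an exact binomial test between 2 libraries at an adjusted p of 0.05 (0 of 171 in each contrast, 5 to 18 at an unadjusted p under 0.05). For these unadjusted counts there is no share over all pairs of windows, so they cannot be weighed. The share of pairs between autosomes also differed between libraries. It was lowest in TGFB1 (14.5%), the library with the highest ratio, and highest in TGFB1+miR-9-LOF (18.5%), the library with the lowest. Control and miR-9-LOF did not follow this inverse order, since miR-9-LOF had both a higher share (17.5% against 16.4%) and a higher ratio (1.52 against 1.51). The part of the share in the difference was not tested.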

How the data were processed

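Contacts were counted in 4 H3K4me3 HiChIP libraries of MLg cells, which the labels place in 4 conditions. Valid pairs were made by the authors with HiC-Pro, run with its defaults on mm10 and an MboI digest, without duplicates. The lists deposited by the authors give the positions and fragments of both ends of each valid pair and a mapping quality score for each end. Lines were counted here at a score of at least 30, in bins of 100 kb, from 10864558 to 15568047 valid pairs a library. Of the pairs between autosomes, 11.0% to 15.5% fell below that score. Ends were set against RefSeq GRCm38.p6, the same build, and TSS of GENCODE M21. Interior windows are the 5-Mb windows from 8 Mb on without the last 5 Mb of a chromosome. Ratios have exact Poisson intervals and log2 ratios exact binomial ones (95%), which cover counting error only. Chromosome pairs, bins and genes were named by fixed rules: the 10 highest and 5 lowest pairs of chromosomes, the 5 highest bins with at least 20 expected pairs and the 10 genes with the most ends. Sfi1's bin was singled out after its values were seen. The members and lists were chosen with earlier results of these data known. Files were read with pyarrow 21.0.0 and pandas 2.3.3 in Python 3.11.15, tests were run with scipy 1.17.1 and numpy 2.4.6, and plots made with matplotlib 3.10.9. The procedure was also run on Poisson counts drawn from the expected numbers, which lack the uneven contact between real windows.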

Additional observations from a re-analysis of the deposited data

Results flagged for a closer look

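The change between libraries with and without TGFB1 had opposite signs without and with the miR-9 antagomiR. On the log2 scale TGFB1 was 0.05 above Control and TGFB1+miR-9-LOF 0.04 below miR-9-LOF, a difference of -0.086 that was not tested and rests on 1 library per condition.

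The X chromosome and pairs with an end of low mapping quality were outside the comparisons. The first 5 Mb of X met those of the autosomes in 1101 pairs with the libraries summed, a ratio of 1.17 (1.10 to 1.24) to expected, with 1.17 in Control, 1.29 in miR-9-LOF, 1.12 in TGFB1+miR-9-LOF and 0.999 in TGFB1. Pairs with at least 1 end under a mapping quality of 30 gave a ratio of 1.85 (1.79 to 1.90) among the first windows of autosomes, from 4078 pairs, and lay between 1.78 and 1.90 in the 4 libraries.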

How the results depend on the processing

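The excess of contacts among the first windows over the interior kept its direction and passed the exact test in each library under every alternative run, with ratios between 1.29 and 2.41, and all 19 windows stayed above expected in the sum except chromosome 19, at 0.910, when the expected number was set within each pair of chromosomes. The alternatives without the first Mb, without the Sfi1 bin and without bins of shared words, the second dispersion, and the results on the first Mb were chosen after seeing the data. No paired analysis was possible because each condition had 1 library.

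Of the 171 pairs of chromosomes, 121 had more pairs than expected (8.55% of all pairs of windows), 74 without the first Mb (8.30%), 0 by the negative binomial test (0.0732%) and 3 with its dispersion estimated without possible rearrangements (0.097%). The 4 with fewer became 10 when expected within each pair of chromosomes, 2 at a mapping quality of at least 40, without ends near a TSS, with X in the fit or without bins of shared words, 1 with gene density classes or windows of 10 Mb, and 0 with expected numbers from all ends, without bins of extreme coverage, by both negative binomial tests or as the lowest count with 1 autosome left out. Of all pairs of windows, 5.84% to 18.8% had fewer under these settings, and 0% by the negative binomial tests, and no count of the 171 was above the share over all. The cause was not tested.

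Between libraries, TGFB1 against Control passed the test at log2 ratios of 0.090 with expected numbers from all ends, 0.091 without bins of extreme coverage, 0.039 in windows of 10 Mb and 0.078 without chromosome 19. TGFB1+miR-9-LOF against TGFB1 no longer passed at -0.078 (mapping quality of at least 40), -0.071 (within each pair of chromosomes, without the Sfi1 bin, or without bins of shared words), -0.062 (without the first 500 kb or the first Mb), -0.074 (without chromosome pairs that hold a possible rearrangement) and -0.052 (without chromosome 6). It passed in 9 of the 19 fits that left out 1 autosome, where it lay between -0.128 (without chromosome 19) and -0.052. TGFB1+miR-9-LOF against miR-9-LOF passed at -0.056 with no minimum on mapping quality.

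The ratio of the chromosomes with ribosomal DNA, 1.25, moved to 1.96 with expected numbers from all ends, 1.11 within each pair of chromosomes, 1.16 without the first 500 kb, 1.12 without the first Mb, 1.52 without bins of extreme coverage and 1.39 in windows of 3 Mb, and lay between 1.10 and 1.58 with 1 autosome left out. That of the first Mb, 3.65, moved to 4.05 with no minimum on mapping quality, 3.25 at 40 or more, 7.73 with expected numbers from all ends, 2.12 without the first 500 kb, 3.18 without the Sfi1 bin and 3.03 without bins of shared words, and lay between 3.42 and 4.17 with 1 autosome left out. A library had a median of 10.9 to 20.0 pairs expected for a pair of chromosomes, which sets the counting error of single libraries.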

Other observations

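The other ends of the autosomes, the last 5 Mb, met each other in 28071 pairs with the libraries summed, a ratio of 1.33 (1.31 to 1.34). The first and the last 5 Mb of different autosomes met in 29139 pairs against 36285 expected, a ratio of 0.803 (0.794 to 0.812), and the 4 libraries lay between 0.770 and 0.819.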
